A study of Mus musculus with 32 samples.

Results

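The mitochondrial genome of the mouse encodes 13 proteins, all of them subunits of the respiratory chain or of ATP synthase, and 10 of these genes are described here in MIN6 cells after 24 hours in 25 or 5.5 mM glucose. The 10 genes were taken as a list of names and found in the count tables by their Ensembl identifiers. They are mt-Nd1, mt-Nd2, mt-Nd4, mt-Nd4l and mt-Nd5, which encode subunits of complex I (NADH dehydrogenase), mt-Cytb, which encodes cytochrome b of complex III, mt-Co1, mt-Co2 and mt-Co3, which encode the catalytic core of complex IV (cytochrome c oxidase), and mt-Atp6, which encodes a subunit of the proton channel of ATP synthase. Both tables list all 13 genes, among 21945 genes in the RNA table and 21927 in the table of ribosome-protected footprints (RPFs). Of the 10 genes, 6 had enough counts for a test in both tables (mt-Nd1, mt-Nd2, mt-Nd4, mt-Nd5, mt-Cytb and mt-Co1) and 4 had too few in both (mt-Nd4l, mt-Co2, mt-Co3 and mt-Atp6).

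These genes are transcribed inside the mitochondrion as long polycistronic RNAs that are cut at the tRNAs lying between the genes, and the mRNAs then receive short poly(A) tails. They are translated by mitochondrial ribosomes, which differ from cytosolic ribosomes and are not arrested by cycloheximide, the drug given to these cells before lysis. Their products assemble with subunits that are encoded in the nucleus and made in the cytosol, and in β cells the respiratory chain couples glucose oxidation to insulin secretion.

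MIN6 is a mouse insulinoma line used as a model of the pancreatic β cell, and the cells are labelled wild type. The groups compared were cells kept in 25 mM glucose and cells kept in 5.5 mM glucose, with 8 cultures each, labelled as biological replicates and made into libraries in 2 batches (replicates 1 to 4 and 5 to 8). Each culture gave a library of RPFs, fragments protected by a ribosome from RNase digestion, and a library of polyadenylated RNA, which makes 32 libraries. Levels are given in CPM, TMM-scaled counts per 1e6 counts within each library type, and log2 fold changes are 25 over 5.5 mM.

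RNA libraries held 16423766 to 33623502 counts at 25 mM and 3014785 to 17542565 at 5.5 mM, and RPF libraries held 363569 to 3283379 counts at 25 mM and 392529 to 7012999 at 5.5 mM. The RNA libraries of replicates 2, 4, 6, 7 and 8 at 5.5 mM stood apart, with 3014785 to 6907849 counts, 0.159% to 1.09% of them from Ins1 and Ins2, against 4.40% to 8.08% in the other 3 libraries at 5.5 mM. Lars2, the mitochondrial leucyl-tRNA synthetase, took 0.625% to 6.70% of the counts of these 5 libraries, against 0.0656% to 0.729% in the other 3. The RPF library labelled 25 mM replicate 8 resembled the 5.5 mM libraries of its batch in the listed genes, as described below, so the counts of called genes in RPFs and TE are also given without it, and whether its label is right was not tested. All 8 β cell markers were detected in both tables, while 8 of 12 markers of other islet, exocrine, endothelial, blood and stromal cells averaged under 1 CPM in both, with Prss1 at 0 in both and Cpa1 at 0 in RPFs. Summed RNA of these 12 markers was 152 to 255 CPM in the 25 mM libraries and 15.2 to 124 CPM in those at 5.5 mM. Their summed RPFs were 210 to 507 CPM in the 25 mM libraries and 149 to 258 CPM in those at 5.5 mM, with 210 CPM in the library labelled 25 mM replicate 8 and at least 278 CPM in the other 7 at 25 mM. Gcg gave the most in both, and their part in the results was not tested.

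The genes without usable counts lay side by side on the mitochondrial genome (GRCm38). The interval from 7013 to 10173 holds mt-Co2 (7013 to 7696), mt-Atp8 (7766 to 7969), mt-Atp6 (7927 to 8607), mt-Co3 (8607 to 9390), mt-Nd3 (9459 to 9806) and mt-Nd4l (9877 to 10173), and none of these 6 genes had a single RPF count in any of the 16 RPF libraries. A count of 0 over a group allows up to 3 counts, or 0.246 CPM at 25 mM and 0.196 CPM at 5.5 mM. In RNA, mt-Co2 had 23 counts in all at 25 mM and 11 at 5.5 mM, mt-Co3 had 18 and 10, mt-Atp6 had 5 and 2, and mt-Nd4l had 10 and 0. No fold change is given for these 4 genes. mt-Nd3, a complex I gene in the same interval that is not on the list, had 397 RNA counts at 25 mM and 25 at 5.5 mM, and mt-Atp8, a second ATP synthase gene, had 0 in both.

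On either side of that interval the counts were high. Upstream lie mt-Nd1 (2751 to 3707), mt-Nd2 (3914 to 4951) and mt-Co1 (5328 to 6872), and downstream lie mt-Nd4 (10167 to 11544), mt-Nd5 (11742 to 13565) and mt-Cytb (14145 to 15288). Summed over the 32 libraries, these 6 genes had 715051 (mt-Nd2) to 2091936 (mt-Cytb) RNA counts and 7002 (mt-Nd4) to 23587 (mt-Co1) RPF counts. The contrast is sharpest within a single transcript, because mt-Nd4l and mt-Nd4 are carried on 1 bicistronic mRNA and overlap at 10167 to 10173: mt-Nd4 had 890516 RNA counts and 7002 RPF counts, and mt-Nd4l had 10 and 0. The RefSeq annotation of the same build places 2 pseudogenes close together on chromosome 1, Gm10925 (24613971 to 24614651), which carries the synonym mt-Atp6 and has the same length of 681 bases as mt-Atp6, and Gm10222 (24612404 to 24612700), with the same length of 297 bases as mt-Nd4l. Neither pseudogene is in the tables. The treatment of reads that match more than 1 place is not given in the sources used here, so the counts of genes with a nuclear copy are uncertain, and the part of such copies in the empty interval was not tested.

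**Figure D1:**
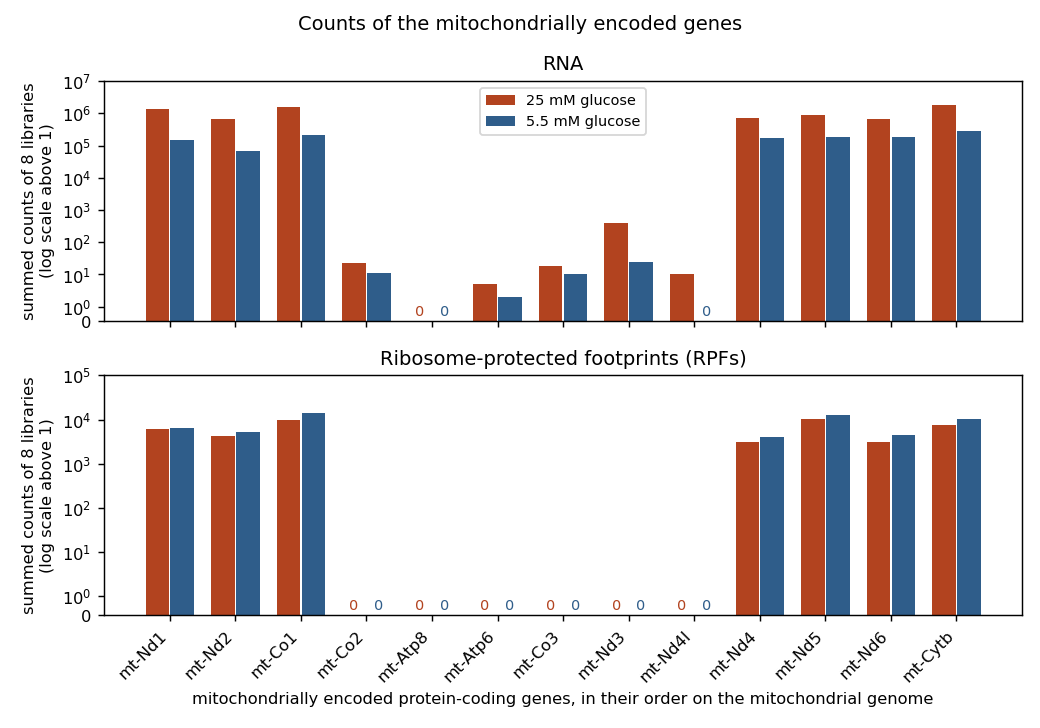
Summed counts of 8 libraries (y axis, log scale above 1) for the 13 mitochondrially encoded protein-coding genes in genome order (x axis), in RNA (top) and RPFs (bottom), with 25 mM in red left of 5.5 mM in blue. A run of 6 genes from mt-Co2 to mt-Nd4l has 0 RPF counts and at most 422 RNA counts, while every gene on either side has at least 7002 RPF counts over both groups.

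Per kilobase, the order of the 6 measured genes was not the same in RPFs and in RNA. In RPFs at 25 mM the mean levels were 532 CPM per kb for mt-Co1, 516 for mt-Cytb, 493 for mt-Nd1, 442 for mt-Nd5, 301 for mt-Nd2 and 161 for mt-Nd4. The first 4 were not separated beyond their spread: mt-Co1 lay above mt-Cytb in 3 of 8 libraries and mt-Cytb above mt-Nd1 in 5 of 8. mt-Nd5 lay above mt-Nd2, and mt-Nd2 above mt-Nd4, in 8 of 8. At 5.5 mM the RPF order was mt-Co1 (789 CPM per kb), mt-Cytb (659), mt-Nd5 (625), mt-Nd1 (566), mt-Nd2 (373) and mt-Nd4 (223), with mt-Nd1 above mt-Nd2, and mt-Nd2 above mt-Nd4, in 8 of 8 libraries.

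In RNA at 25 mM the order was mt-Cytb (5444 CPM per kb), mt-Nd1 (4928), mt-Co1 (3614), mt-Nd2 (2086), mt-Nd4 (1803) and mt-Nd5 (1690). mt-Nd1 lay above mt-Co1, and mt-Co1 above mt-Nd2, in 8 of 8 libraries, while mt-Nd2 lay above mt-Nd4 in only 4 of 8. mt-Nd5, which encodes the largest of these complex I subunits, thus had the lowest RNA level per kb at 25 mM but stood in the middle of the RPF order. At 5.5 mM the RNA levels per kb ran from 1140 ± 1560 for mt-Nd2 to 3117 ± 3077 for mt-Cytb (SD, n = 8), and each gene lay above the next in 2 to 7 of 8 libraries.

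With all 16 RPF libraries, none of the mitochondrially encoded genes passed the main test between 25 and 5.5 mM, which takes the cultures as unpaired. The calls differed with the replicate number as a block, as given under how the results depend on the processing. All 6 log2 fold changes were negative, from -0.15 (mt-Nd1) to -0.53 (mt-Co1), with a median of -0.38 against -0.01 over all 8709 genes tested. With edgeR's quasi-likelihood test, batch as a covariate and an adjusted p under 0.1 as the call, 0 of the 6 were called, while 15.4% of all genes were called lower and 15.5% higher. At an unadjusted p under 0.05 there was 1 (mt-Co1). DESeq2's Wald test called 0, with 0 at an unadjusted p under 0.05, beside 15.7% of all genes called higher and 14.4% lower. In these bulk libraries a difference in the number of mitochondria or of cells that hold them and a difference in footprints per mitochondrion cannot be told apart.

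mt-Co1, whose product holds the haem and copper centre that reduces oxygen, had 443, 642 and 2093 CPM of RPFs (lowest, median and highest) at 25 mM and 631, 1181 and 1934 CPM at 5.5 mM, and its log2 fold change was -0.53 (SE 0.24, adjusted p = 0.11 by edgeR's quasi-likelihood test). Of the 25 mM libraries, 4 lay below every 5.5 mM library and 1, replicate 8, lay above them all. mt-Nd5, a proton-pumping subunit at the tip of the membrane arm of complex I, had a median of 644 CPM at 25 mM, with a range of 458 to 1683 CPM, and a median of 1156 CPM at 5.5 mM, with a range of 576 to 1715 CPM (log2 fold change -0.45, SE 0.22, adjusted p = 0.15). Its groups overlapped, with 2 libraries at 25 mM below all of those at 5.5 mM and none above them.

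mt-Nd4, another proton-pumping subunit of complex I, had 118, 163 and 401 CPM of RPFs at 25 mM and 180, 302 and 423 CPM at 5.5 mM, and its log2 fold change was -0.42 (SE 0.22, adjusted p = 0.18). mt-Nd2, the third subunit of that kind, had 179, 239 and 525 CPM at 25 mM and 245, 364 and 583 CPM at 5.5 mM, and its log2 fold change was -0.28 (SE 0.20, adjusted p = 0.34). For both genes 5 of 8 libraries at 25 mM lay below every library at 5.5 mM, and none lay above them all. mt-Cytb, the subunit of complex III that passes electrons between its quinone sites, had 323, 534 and 1030 CPM at 25 mM and 496, 780 and 970 CPM at 5.5 mM (log2 fold change -0.33, SE 0.18, adjusted p = 0.18), with 3 libraries at 25 mM below and 1 above all of those at 5.5 mM.

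mt-Nd1, which joins the membrane arm of complex I to its matrix arm near the quinone site, stood nearest to no difference. It had 315, 376 and 774 CPM of RPFs at 25 mM and 271, 563 and 711 CPM at 5.5 mM, and its log2 fold change was -0.15 (SE 0.19, 95% interval -0.53 to 0.22). No 25 mM library lay below all of those at 5.5 mM, and 2 lay above them. Taken as a share of all counts, the 10 genes together made up 0.179% to 0.630% of RPF counts at 25 mM (median 0.244%) and 0.252% to 0.611% at 5.5 mM (median 0.448%).

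**Figure D2:**
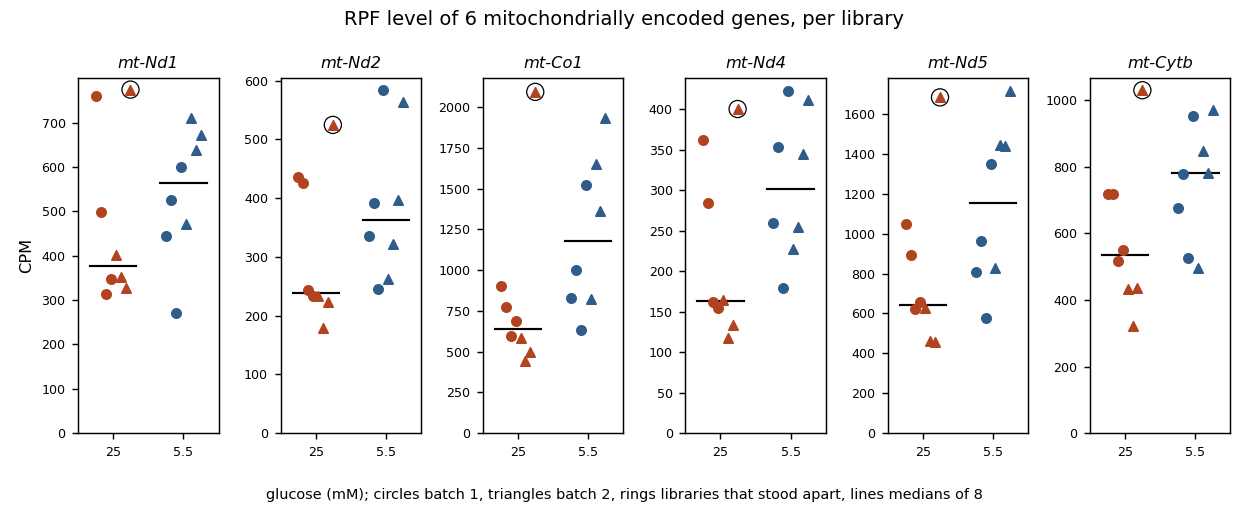
RPF level in CPM (y axes from 0, each with its own scale) of the 6 measured genes in each library at 25 mM (red, left) and 5.5 mM (blue, right); circles are batch 1, triangles batch 2, lines medians of 8, and the ring marks 25 mM replicate 8. In batch 2 the ringed library sits among or above the 5.5 mM libraries, at 2093 CPM for mt-Co1, and the other batch 2 libraries at 25 mM sit below all of the batch 2 libraries at 5.5 mM for each gene. How often other genes separate in this way is not given.

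The number of calls changed with the settings and with 1 library, and the log2 fold changes differed in size between the batches. With all 16 libraries, 5 of 6 genes were called lower when no filter on low counts was used, beside 7.72% of all genes, and 1 with library size scaling, beside 18.3%. Leaving out replicate 1 or replicate 3 of both groups gave 2 and 1, beside 14.0% and 15.4% of all genes. The RPF library labelled 25 mM replicate 8 had the highest level among the 25 mM libraries for each of the 6 genes, with 2093 CPM of mt-Co1 against 443 to 900 CPM in the other 7, so leaving it out lowers the 25 mM level by construction. Without it, 5 of 6 genes were lower at 25 mM at an adjusted p under 0.1, beside 17.0% of all genes, and the median log2 fold change was -0.57. mt-Co1 fell by 0.88 (SE 0.20, adjusted p = 0.0014), mt-Nd5 by 0.70 (SE 0.20, adjusted p = 0.011), mt-Nd4 by 0.61 (SE 0.20, adjusted p = 0.027), mt-Cytb by 0.52 (SE 0.15, adjusted p = 0.011) and mt-Nd2 by 0.45 (SE 0.19, adjusted p = 0.076) on the log2 scale. mt-Nd1 was at -0.28 (SE 0.19, adjusted p = 0.29).

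Within the first batch alone 0 of 6 genes were called lower, beside 9.39% of all genes. The log2 fold changes there ran from -0.40 (mt-Co1) to 0.09 (mt-Nd1), with a median of -0.19. Within the second batch alone 0 of 6 were called lower as well, beside 1.39% of all genes, and the median was -0.49. When the second batch was taken without 25 mM replicate 8, a fit added after the values had been seen, all 6 genes were lower at 25 mM, beside 10.9% of all genes, and the median was -1.05. There mt-Co1 had 443 to 585 CPM in the 3 remaining 25 mM libraries and 826 to 1934 CPM in the 4 libraries at 5.5 mM (log2 fold change -1.49, SE 0.16), and mt-Nd5 had 458 to 630 CPM against 826 to 1715 CPM (log2 fold change -1.38, SE 0.16). For all 6 genes those 3 libraries lay below every second-batch library at 5.5 mM. The library left out was the highest at 25 mM for each of these genes. How often other genes separate in this way is not given, so the separation is a description only. Leaving the cultures of replicates 2, 4, 6, 7 and 8 out of both groups turned 4 of the 6 log2 fold changes positive, with a median of 0.08 and 0 calls. In that fit 4.73% of all genes were called higher and 2.75% lower.

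The RPFs of the 6 genes moved together from library to library. Across the 16 RPF libraries, the Pearson correlation of log2 CPM between 2 of them ran from 0.81 to 0.98 over the 15 pairs, with a median of 0.91; these values share the library's scaling and batch, and are given as a description. The closest pair was mt-Nd5 and mt-Co1. Of all tested genes outside the list, the 1 most like the summed level of the 10 genes in RPFs was mt-Nd6 (r = 0.95, 16 libraries), the complex I gene that lies on the opposite strand. It was followed by Mki67 (r = 0.92), a marker of proliferating cells, Macf1 (r = 0.87), a cytoskeletal linker, and Ccdc88a (r = 0.87), which encodes the actin-binding protein girdin. mt-Nd6 itself had 123, 180 and 831 CPM of RPFs at 25 mM and 178, 432 and 730 CPM at 5.5 mM (log2 fold change -0.60, SE 0.28, adjusted p = 0.12).

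RNA of the same genes took a larger share of the counts in most 25 mM libraries, with a wide spread at 5.5 mM. The 10 genes together made up 2.63% to 5.50% of RNA counts at 25 mM (3.32% ± 0.925, SD, n = 8) and 0.228% to 2.77% at 5.5 mM (1.19% ± 0.903). The call in RNA was an adjusted p under 0.01 in the same edgeR quasi-likelihood test, by which 0 of 6 genes were called, while 16.4% of all 12365 genes tested were called higher and 24.2% lower. At an unadjusted p under 0.05 there was 1 (mt-Nd1). DESeq2's Wald test called 0, beside 22.7% of all genes called higher and 31.7% lower. The 6 log2 fold changes had a median of 0.96, against 0.12 over all genes tested. Within the first batch alone the median was 1.47 and within the second 0.39, with 0 of 6 genes called in either. In the first batch 0 of all genes were called, and in the second 16.8% were called higher and 20.0% lower.

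mt-Nd1 had 3246, 4216 and 9486 CPM of RNA at 25 mM and 213, 1393 and 4490 CPM at 5.5 mM, and its log2 fold change was 1.52 (SE 0.57, adjusted p = 0.031 by edgeR's quasi-likelihood test). mt-Nd2 had 1267, 1855 and 4917 CPM at 25 mM and 94.5, 518 and 4900 CPM at 5.5 mM (log2 fold change 1.16, SE 0.60, adjusted p = 0.11). The groups overlapped for both genes: replicates 3 and 7 at 5.5 mM reached the 25 mM range for mt-Nd1, and replicates 6 and 7 for mt-Nd2. mt-Co1 had the widest spread, with 4462, 5226 and 8073 CPM at 25 mM and 39.7, 1006 and 14848 CPM at 5.5 mM (log2 fold change 0.99, SE 0.88, adjusted p = 0.34).

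mt-Cytb had 5108, 5693 and 9857 CPM of RNA at 25 mM and 372, 3341 and 10845 CPM at 5.5 mM (log2 fold change 0.94, SE 0.59, adjusted p = 0.18). mt-Nd4 had 1937, 2262 and 4312 CPM at 25 mM and 271, 1905 and 5844 CPM at 5.5 mM (log2 fold change 0.35, SE 0.49, adjusted p = 0.54). For both genes every 25 mM library lay inside the range of those at 5.5 mM. mt-Nd5 was the exception in sign, with 2090, 2807 and 5929 CPM at 25 mM and 865, 4531 and 7830 CPM at 5.5 mM (log2 fold change -0.47, SE 0.41, adjusted p = 0.34), and its log2 fold change turned to 0.60 with library size scaling, which also moved the median of all genes to 0.82.

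**Figure D3:**
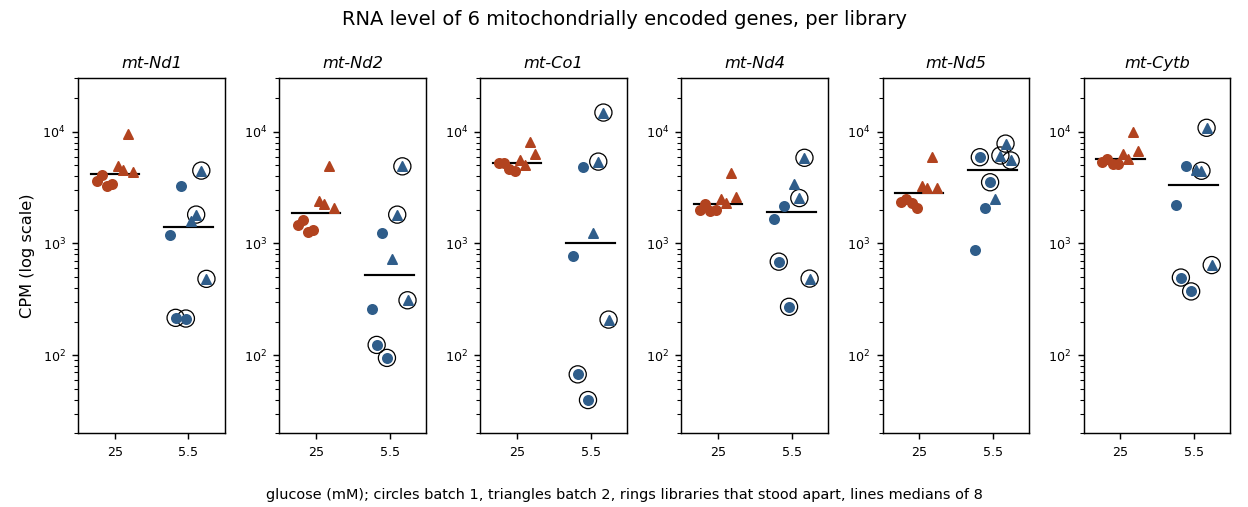
RNA level in CPM (y axes, log scale) of the 6 measured genes in each library at 25 mM (red, left) and 5.5 mM (blue, right), with symbols for batches and medians as in the plot of RPF levels and rings on the 5 RNA libraries at 5.5 mM that stood apart. The 25 mM libraries of mt-Co1 lie between 4462 and 8073 CPM and those at 5.5 mM between 39.7 and 14848 CPM, while for mt-Nd5 no ringed library lies below 3530 CPM.

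The 5.5 mM RNA libraries also differed in which mitochondrial RNAs they held, a comparison that needs no scaling between libraries. mt-Nd5 took 11.3% to 13.9% of the counts of the 10 genes at 25 mM, and 78.8%, 78.1% and 72.2% in replicates 2, 4 and 8 at 5.5 mM. In those 3 libraries mt-Co1 took 0.897%, 0.877% and 2.72%, against 19.0% to 26.1% at 25 mM. In TMM-scaled CPM, mt-Nd5 stood there at 5914, 3530 and 5531, the neighbouring mt-Nd6 at 4120, 2041 and 2617, and mt-Co1 at 67.3, 39.7 and 208. These levels depend on the scaling, with TMM factors of 0.660, 0.505 and 0.525. As a share of all counts, mt-Nd5 took 0.390%, 0.178% and 0.290% there, against 0.298% to 0.766% at 25 mM. mt-Nd6 took 0.272%, 0.103% and 0.137%, against 0.215% to 0.567%. Replicates 1 and 5 at 5.5 mM had another make-up, with 23.7% and 24.3% of the counts on mt-Nd4 against 9.94% to 10.7% at 25 mM, and replicate 3 resembled the 25 mM libraries, with 26.2% on mt-Co1 and 11.2% on mt-Nd5.

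In RPFs the make-up varied little. mt-Nd5 took 22.1% to 25.9% of the counts of the 10 genes at 25 mM and 23.7% to 29.0% at 5.5 mM, and mt-Co1 took 21.3% to 32.2% at 25 mM and 24.7% to 31.6% at 5.5 mM. In the RPF libraries of replicates 2, 4 and 8 at 5.5 mM, mt-Nd5 took 24.0%, 24.8% and 27.4%, so the make-up of the RNA libraries with those numbers was not seen in RPFs. Across the 16 RNA libraries the correlation of log2 CPM with mt-Nd5 ran from -0.11 (mt-Nd1) to 0.19 (mt-Nd2), while the other pairs ran from 0.87 to 0.98. The genes outside the list most like the summed RNA level of the 10 were Mre11a (r = 0.95, 16 libraries), which acts in DNA double-strand break repair, Zfp800 (r = 0.93), Rufy2 (r = 0.91), Spc25 (r = 0.90), a kinetochore component, and Slc18a2 (r = 0.90), a vesicular monoamine transporter, and mt-Nd6 ranked 4763rd (r = 0.25). Whether counting used the strand is not given in the sources used here, so reads of mt-Nd6 and of the transcript opposite it cannot be told apart.

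**Figure D4:**
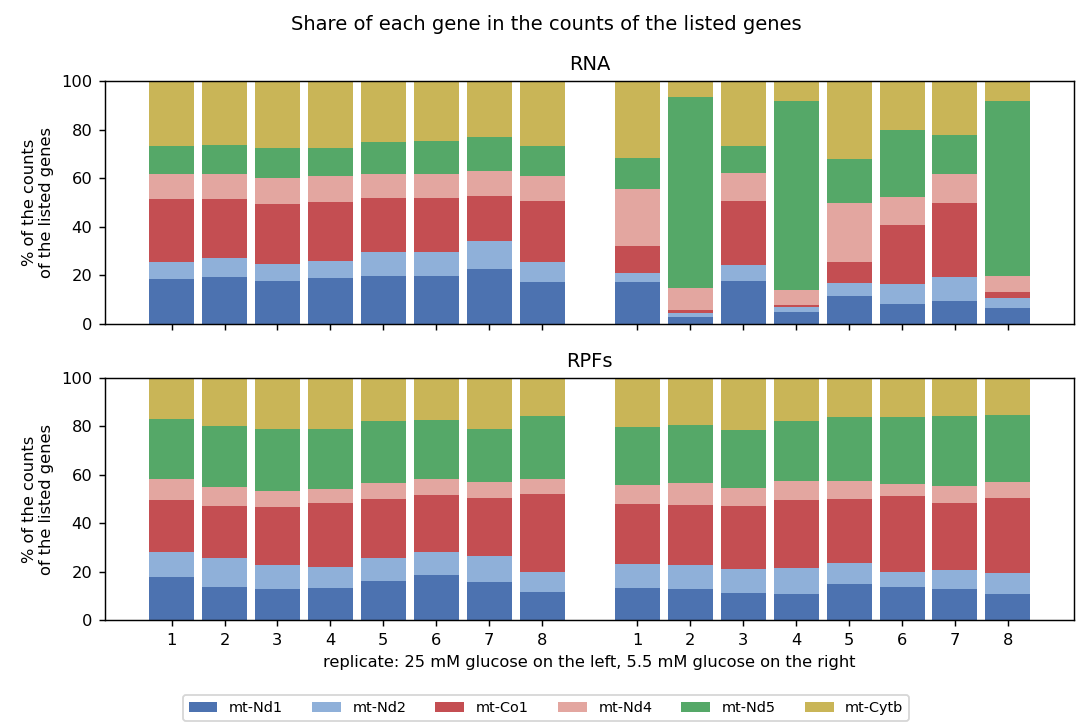
Share of each measured gene in the counts of the listed genes (y axis, %) in each library (x axis, replicate), at 25 mM (left) and 5.5 mM (right), in RNA (top) and RPFs (bottom). mt-Nd5 (green) takes 72.2% to 78.8% in RNA replicates 2, 4 and 8 at 5.5 mM and 22.1% to 29.0% in all 16 RPF libraries.

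Without the 5 RNA libraries that stood apart, 0 of 6 genes were called in RNA, beside 10.4% of all genes called higher, and 5 of 6 had an unadjusted p under 0.05. There the log2 fold changes were 1.28 for mt-Nd2 (SE 0.45, adjusted p = 0.032), 1.27 for mt-Co1 (SE 0.49, adjusted p = 0.043), 1.08 for mt-Nd1 (SE 0.37, adjusted p = 0.028), 0.64 for mt-Nd5 (SE 0.27, adjusted p = 0.061) and 0.60 for mt-Cytb (SE 0.24, adjusted p = 0.050). mt-Nd4 was at -0.02 (SE 0.19). The remaining 5.5 mM libraries, replicates 1, 3 and 5, had 767, 4860 and 1246 CPM of mt-Co1, so replicate 3 alone reached the 25 mM range. Outside the list, mt-Nd3 had 12 to 118 RNA counts per library at 25 mM and 0 to 9 at 5.5 mM. It passed the filter on low counts through the 25 mM libraries, and its 5.5 mM level was near the floor. Its log2 fold change was 1.61 with all libraries (SE 0.47, adjusted p = 0.0085), and it was not called without those 5 (1.59, SE 0.51, adjusted p = 0.022). Because of the filter and the low counts, no conclusion is drawn from either fit.

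Translation efficiency (TE), the RPF level relative to RNA, was lower at 25 mM for 3 of the 6 genes. mt-Nd1 fell by 1.61 (SE 0.59, adjusted p = 0.022), mt-Nd2 by 1.38 (SE 0.64, adjusted p = 0.071) and mt-Cytb by 1.21 (SE 0.59, adjusted p = 0.087) on the log2 scale, by edgeR's quasi-likelihood test of the interaction with a call under 0.1. mt-Co1 (-1.46, SE 0.93), mt-Nd4 (-0.72, SE 0.54) and mt-Nd5 (0.11, SE 0.46) were not called. Over all 8637 genes tested, 28.6% were called lower and 31.2% higher, so calls were common in both directions. The 3 calls became 1 when replicate 1, 2, 4, 5 or 6 was left out. In those fits 22.5% of all genes were called lower without replicate 6, and more without replicate 1, 2, 4 or 5. The second batch alone gave 1 call, beside 29.1% of all genes. The first batch alone gave 0. Only 0.233% of all genes were called lower there, so no conclusion about these genes is drawn from that fit. The RNA spread described above enters the TE values, and its part in them was not tested.

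Per culture, the log2 TE of mt-Co1 ran from -4.01 to -1.61 at 25 mM (median -2.85) and from -3.45 to 5.24 at 5.5 mM (median -0.24), and that of mt-Nd1 ran from -4.85 to -2.26 at 25 mM (median -3.33) and from -3.58 to 1.49 at 5.5 mM (median -1.38). The groups overlapped for both genes. At 25 mM all 6 genes were near the bottom of the TE order, from the 0.151 percentile (mt-Nd4, mean log2 TE -3.57) to the 1.69 percentile (mt-Nd5, -1.99) of 8637 genes, whose median was 0.31. At 5.5 mM they stood higher and further apart, from the 7.13 percentile (mt-Nd4, mean log2 TE -2.26) to the 47.8 percentile (mt-Co1, 0.47), around a median of 0.57 over all genes. These means include the RNA libraries that stood apart, with log2 TE of mt-Co1 at 3.88, 5.24 and 3.21 in replicates 2, 4 and 8. Without those libraries, the mean log2 TE at 5.5 mM ran from -3.38 (mt-Nd4) to -1.14 (mt-Nd2 and mt-Co1), over 3 cultures. The percentiles at both glucose levels compare mitochondrial ribosomes with the cytosolic ribosomes that read nearly all other genes.

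Without the 5 RNA libraries and the RPF library labelled 25 mM replicate 8, 5 of 6 genes had a lower TE at 25 mM, beside 26.3% of all genes called lower and 27.4% higher. mt-Co1 fell by 2.12 (SE 0.49, adjusted p = 0.0019), mt-Nd2 by 1.71 (SE 0.46, adjusted p = 0.0049), mt-Nd1 by 1.32 (SE 0.40, adjusted p = 0.011), mt-Nd5 by 1.29 (SE 0.37, adjusted p = 0.0081) and mt-Cytb by 1.08 (SE 0.29, adjusted p = 0.0051). mt-Nd4 was at -0.56 (SE 0.33, adjusted p = 0.17). The median of the 6 was -1.31 against 0.01 over all genes. That RPF library was the highest of its group for each of the 6 genes, so leaving it out lowers their TE at 25 mM by construction. Without only the 5 RNA libraries, 5 of 6 were called lower with a median of -1.10, beside 26.2% of all genes. None was called when the cultures of replicates 2, 4, 6, 7 and 8 were left out of both groups, a fit in which 0 of all genes were called.

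Some nuclear-encoded partners of these subunits had more RPFs at 25 mM, and none passed the test for fewer. Of 71 nuclear subunits of complexes I, III and IV and ATP synthase, 65 were tested, 25 rose and 0 fell, with a median log2 fold change of 0.21, beside 15.5% of all genes called higher and 15.4% lower. Without 25 mM replicate 8, 30 rose and 2 fell, beside 17.6% and 17.0% of all genes. In complex I, 10 of 34 rose, among them Ndufc2 (0.63, SE 0.12, adjusted p = 0.00047), Ndufa6 (0.43, SE 0.10, adjusted p = 0.0027) and Ndufv2 (0.33, SE 0.08, adjusted p = 0.0054), the last a carrier of an iron-sulfur cluster. In complex III, 4 of 9 rose, with Uqcrh at 0.82 (SE 0.17, adjusted p = 0.0010), Uqcr10 at 0.76 (SE 0.14, adjusted p = 0.00041) and the Rieske protein gene Uqcrfs1 at 0.30 (SE 0.08, adjusted p = 0.0085).

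In complex IV, 5 of 10 nuclear subunits rose in RPFs, with Cox6b1 at 0.44 (SE 0.12, adjusted p = 0.0083), Cox5a at 0.40 (SE 0.10, adjusted p = 0.0043) and Cox6a1 at 0.38 (SE 0.11, adjusted p = 0.011). In ATP synthase, 6 of 12 rose, with Atp5j2 at 0.56 (SE 0.15, adjusted p = 0.0099), Atp5e at 0.50 (SE 0.11, adjusted p = 0.0025) and Atp5g3, which encodes the ring subunit next to the mt-Atp6 product, at 0.42 (SE 0.11, adjusted p = 0.0054). None of the 6 mitochondrially encoded genes had a positive log2 fold change in that fit. The difference between the mitochondrial and the nuclear group was not tested. Within a library, the 10 genes had 15.2 to 55.4 RPF counts for every 100 on the 71 nuclear subunits at 25 mM (median 20.6) and 18.0 to 54.0 at 5.5 mM (median 40.9), with the highest 25 mM value in replicate 8 and the next at 33.7.

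**Figure D5:**
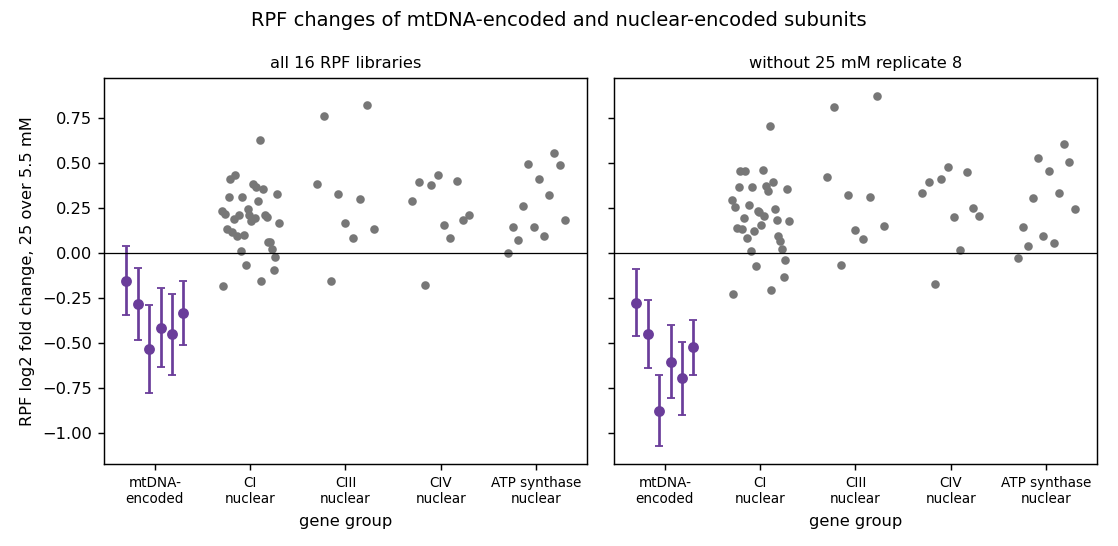
RPF log2 fold change, 25 over 5.5 mM (y axis), of the 6 measured mitochondrially encoded genes (purple, with SE, in the order mt-Nd1, mt-Nd2, mt-Co1, mt-Nd4, mt-Nd5, mt-Cytb) and of each tested nuclear subunit of complexes I, III and IV and ATP synthase (grey, no error drawn), with all 16 RPF libraries (left) and without 25 mM replicate 8 (right). The mitochondrially encoded genes have medians of -0.38 and -0.57, and the nuclear subunits 0.21 and 0.23.

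In RNA the nuclear subunits did not share that direction: of 71 tested, 7 rose and 7 fell with all libraries, beside 16.4% of all genes called higher and 24.2% lower. Without the 5 that stood apart 3 rose and 19 fell, beside 10.4% and 19.2%. Ndufa10 fell by 3.33 (SE 0.49, adjusted p = 7.8e-05) with all libraries and by 1.53 (adjusted p = 0.0020) without the 5, and Atp5e fell by 2.05 (SE 0.33, adjusted p = 0.00014) and by 1.56 (adjusted p = 0.0041). With all libraries Ndufa2 fell by 1.46 (SE 0.25), Uqcrq by 1.40 (SE 0.27) and Atp5d by 1.97 (SE 0.30). Without the 5, their log2 fold changes were -1.26, -1.33 and -1.42. In TE, 15 of 65 nuclear subunits rose and 17 fell with all libraries, beside 31.2% and 28.6% of all genes. Without the 6 that stood apart 35 rose and 4 fell, beside 27.4% and 26.3%, in the fit in which 5 of 6 mitochondrially encoded genes fell.

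Among factors that maintain, transcribe, process and translate the mitochondrial genome, calls in RPFs differed from list to list, and the differences between lists were not tested. Of all genes, 15.5% were called higher in RPFs and 15.4% lower. Of 10 tested genes for mitochondrial DNA maintenance and transcription, 0 were called (median log2 fold change -0.14), 0 had an unadjusted p under 0.05 and DESeq2 called 0, among them Polrmt, the mitochondrial RNA polymerase, at -0.29 (SE 0.15, adjusted p = 0.18) and Tfam, which packages the genome and starts transcription, at -0.17 (SE 0.17, adjusted p = 0.50), both named after their values were seen. Of 11 mitochondrial translation factors 0 were called as well (median 0.16), with 0 at an unadjusted p under 0.05 and 0 called by DESeq2. Of 18 genes for mitochondrial RNA processing and stability, 5 rose and 3 fell: Rexo2, a mitochondrial exonuclease that degrades short RNAs, rose by 0.91 (SE 0.14, adjusted p = 7.2e-05), Fastkd3 rose by 0.48 (SE 0.15, adjusted p = 0.017), and Lrpprc, which stabilises mitochondrial mRNAs, fell by 0.44 (SE 0.11, adjusted p = 0.0044).

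Lrpprc had 348 ± 79.5 CPM of RPFs at 25 mM and 476 ± 41.1 CPM at 5.5 mM (SD, n = 8), and its binding partner Slirp, named after its value was seen, rose by 0.41 (SE 0.14, adjusted p = 0.034). Of 15 mitochondrial aminoacyl-tRNA synthetases, 2 rose and 2 fell in RPFs, beside 15.5% of all genes called higher and 15.4% lower. Cars2 was at 0.68 (SE 0.19, adjusted p = 0.011) and Iars2 at -0.34 (SE 0.12, adjusted p = 0.042). Lars2 fell by 5.25 in RNA with all libraries (SE 0.97, adjusted p = 0.00032) and by 1.85 without the 5 that stood apart (adjusted p = 0.0045). It had 17.7 to 34.7 CPM of RPFs at 25 mM and 18.2 to 38.1 CPM at 5.5 mM, so its RNA share in the libraries that stood apart had no counterpart in RPFs.

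In RNA the same lists had calls in both directions, beside 16.4% of all genes called higher and 24.2% lower. Of 16 genes for mitochondrial DNA maintenance and transcription, 2 rose and 3 fell, the 3 being Twnk, the replicative helicase (-1.56, SE 0.25), Mterf4 (-1.10, SE 0.27) and Top1mt, the mitochondrial topoisomerase (-0.78, SE 0.23). Of 19 RNA processing genes 2 rose and 2 fell, with Fastkd5 at 1.68 (SE 0.39), and of 15 translation factors 2 rose and 3 fell, with Rmnd1 at -2.28 (SE 0.30). Of 17 aminoacyl-tRNA synthetases 3 rose and 5 fell, with Wars2 at -3.19 (SE 0.48) and Vars2 at -1.90 (SE 0.26). Without the 5 RNA libraries that stood apart, the counts that rose and fell were 0 and 5 for maintenance and transcription, 1 and 3 for RNA processing, 0 and 4 for translation factors, and 1 and 8 for the synthetases. In that fit 10.4% of all genes were called higher and 19.2% lower. The genes named here were chosen as called in the same direction in both fits.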

How the data were processed

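RPFs and polyadenylated RNA were sequenced from the same cultures. The authors processed reads with the XPRESSyourself pipeline against the mouse genome (Ensembl release 102), removed ribosomal RNA reads and PCR duplicates, and deposited whole-number counts per gene. Reads were counted either on exons or on coding sequences with their ends trimmed, for each gene's longest transcript, and the choice made for RNA and for RPFs, the handling of multiply mapped reads, the strand setting and tool versions are not given in the sources used here. A symbol was found for 21826 of 21945 identifiers.

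Counts were tested with edgeR 4.0.16 (quasi-likelihood test, TMM, filterByExpr by glucose with a minimum of 10 counts, batch as covariate) in R 4.3.3, over all genes of a table, with Benjamini-Hochberg adjustment and calls under 0.01 in RNA and under 0.1 in RPFs and TE. TE was tested as a glucose-by-library-type term over all 32 libraries together, with batch nested in library type. The SE came from the F statistic. TE per culture used a pseudocount of 0.5 CPM. DESeq2 1.42.0, limma 3.58.1, other scalings, no filter, no batch term, the replicate block, each batch alone and left-out libraries were alternatives. The scripts were checked on simulated counts. Positions are from RefSeq on GRCm38.p6. Figures were drawn with matplotlib 3.10.9.

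The named genes are all 10 listed genes, mt-Nd3, mt-Nd6 and mt-Atp8, up to 3 called genes of smallest p in each pathway list that keep their call without the libraries that stood apart, the 5 genes most correlated with the summed level of the 10, and Ins1, Ins2 and Lars2. Some genes that this rule names are not reported here. The genes, the lists and the libraries to leave out were chosen with earlier results of these data known. P-values in RNA and in RPFs measure the spread between cultures, and limits from a count of 0 cover counting error only. The main TE test took the 32 libraries as independent, with no term for the culture that an RPF and an RNA library share. Its p-values therefore measure the spread between libraries, not that of TE between cultures. Replicate numbers were not used to pair cultures between the glucose groups, except in the replicate block. Within a glucose group, they matched the RPF and RNA libraries of a culture for TE per culture and for the limma fit. Nothing was fitted to the 4 genes with too few counts.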

Additional observations from a re-analysis of the deposited data

Results flagged for a closer look

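A sample was singled out when its gap to the nearest of the other 7 in its group was large for the group's range, which happens by chance in about 1 of 20 groups; 12 of 64 groups tested had one. RNA replicate 7 at 25 mM was the highest of its group for mt-Nd1 (9486 CPM, others 3246 to 4934), mt-Nd2 (4917 CPM, others 1267 to 2400), mt-Nd4 (4312 CPM, others 1937 to 2629), mt-Nd5 (5929 CPM, others 2090 to 3262) and mt-Cytb (9857 CPM, others 5108 to 6720), and the 10 genes made up 5.50% of its counts, against 2.63% to 3.38% in the others.

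RNA replicate 7 at 5.5 mM, one of the 5 libraries that stood apart, was the highest of its group for mt-Nd2 (4900 CPM, others 94.5 to 1811), mt-Cytb (10845 CPM, others 372 to 4980) and mt-Co1 (14848 CPM, others 39.7 to 5404). Its counts are scaled up by a TMM factor of 0.444, and the 10 genes made up 2.16% of its counts. The RPF library labelled 25 mM replicate 8 was the highest of its group for mt-Co1 (2093 CPM, others 443 to 900), which also took the largest share of the counts of the 10 genes there (32.2%, others 21.3% to 26.2%). In RPF replicate 7 at 25 mM mt-Nd5 took the lowest share of its group (22.1%, others 24.7% to 25.9%).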

How the results depend on the processing

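The number of the 6 genes called lower in RPFs, 0 with all libraries, was 1 with library size scaling, 5 with no filter on low counts, 4 with the replicate block, 5 without the RPF library labelled 25 mM replicate 8, 6 in the second batch alone without it (added after seeing the data), and 0 to 4 when each replicate number was left out in turn (2, 1 and 4 without replicates 1, 3 and 8). Over these settings, 7.72% (no filter) to 18.3% (library size scaling) of all genes were called lower in RPFs. The number called higher in RNA was 0 to 1 over the left-out replicates (1 without replicate 3, beside 22.0% of all genes). The number called lower in TE, 3 with all libraries, was 1 with DESeq2 size factors, 6 with library size scaling, 1 with no batch term, 5 with the replicate block, 0 in the first batch alone, 1 in the second batch alone, 5 without the 5 RNA libraries, 0 without the cultures of replicates 2, 4, 6, 7 and 8, 5 without the 6 libraries, 5 with limma on TE per culture, and 1 to 4 over the left-out replicates. The share of all genes called lower in TE was 28.6% with all libraries, 24.9% with DESeq2 size factors and 26.8% with no batch term. It was higher with library size scaling (48.7%), limma (38.1%) and the replicate block (35.1%), and 0.233% in the first batch alone. The second batch alone gave 29.1%, leaving out the 5 RNA libraries 26.2%, the 6 libraries 26.3% and the cultures 0%. Leaving out replicate 6 gave 22.5%, the lowest over the left-out replicates. Over all genes, counts called higher and lower were 2032 and 2998 in RNA, with 0 and 0 in the first batch alone and 2175 and 1342 with library size scaling, 1351 and 1338 in RPFs, with 197 and 94 in the second batch alone, and 2697 and 2473 in TE, with 829 and 24 in the first batch alone and 1147 and 4208 with library size scaling, which moved the TE median of all genes to -0.91. The replicate block was not used above because same-numbered cultures did not all deviate together, with r over 0.1 in 2 of 8 RNA pairs and 4 of 8 RPF pairs (r from -0.21 to 0.22 in RNA, from 0.01 to 0.48 in RPFs, with 6 of 8 RPF pairs and 1 of 8 RNA pairs closest to their own number).

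Signs turned as follows. In RNA, mt-Nd4 was at -0.027 in the second batch alone, -0.022 without the 5 RNA libraries and -0.12 without the cultures of replicates 2, 4, 6, 7 and 8, and mt-Nd5 at 0.60 with library size scaling, 0.64 without the 5 libraries and 0.57 without the cultures. In RPFs, mt-Nd1 was at 0.092 in the first batch alone, and without the cultures mt-Nd1 was at 0.36, mt-Nd2 at 0.13, mt-Nd4 at 0.089 and mt-Nd5 at 0.080. In TE, mt-Nd4 was at 0.21 without the cultures, and mt-Nd5 at -1.09 with library size scaling, -0.16 with no filter, -0.13 with the replicate block, -0.13 in the second batch alone, -1.03 without the 5 RNA libraries, -0.15 without the RPF library, -0.46 without the cultures, -1.29 without the 6 libraries, -0.16 with limma, and -0.14 to 0.27 over the left-out replicates. The causes were not tested. The lowest RPF count of a tested gene was 41, for mt-Nd4 in a second-batch library.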
